A study of Caenorhabditis elegans with 2 samples.

Results

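The left piRNA cluster of *Caenorhabditis elegans* chromosome IV is described here through the places where chromatin immunoprecipitation and sequencing (ChIP-seq) recorded SNPC-4. Members were all entries of the pooled list on genome build ce11 whose summit, the entry's highest point, lay on chromosome IV from 4800000 to 7000000. They numbered 1863 of the 30000 entries of that list, or 6.21%. SNPC-4 had been immunoprecipitated from whole young adult worms of mixed sex, in 2 biological replicates that formed the only group. The worms were of strain OP179, with the *unc-119(ed3)* mutation on chromosome III and the transgene *wgIs179*, from which SNPC-4 was stably expressed with GFP and FLAG fused to its C-terminus. The chromatin was broken by sonication, and the control experiment that the labels name was not analysed here. Whole animals were used, so binding in few cells and weak binding in many cannot be told apart, and the fusion comes from a transgene. The labels call the replicates biological and do not say whether they came from separate cultures, so differences between them may be technical.

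SNPC-4 is a DNA-binding subunit of SNAPc, the small nuclear RNA activating protein complex. This complex recognises a proximal sequence element shortly upstream of genes for small nuclear RNAs (snRNAs) and for spliced leaders. In the worm germline SNPC-4 also acts with PRDE-1 and TOFU proteins at the clustered piRNA genes of chromosome IV. piRNAs, called 21U-RNAs in *C. elegans*, guide the Argonaute PRG-1 to foreign and self transcripts, and most of their genes carry an upstream motif with the core CTGTTTCA. Each is transcribed as its own short unit. The cluster, defined as a run of 100 kb windows with 20 or more annotated piRNA genes in which breaks of 500 kb or less were bridged, ran from 4800001 to 7000000 and held 2807 piRNA genes among 3512 annotated genes. A single window inside it, from 6700001 to 6800000, held fewer, with 17. The pooled list holds peaks and background by its label, because it served as input to the irreproducible discovery rate (IDR). IDR is a comparison of how consistently entries recur between replicates. An entry in the pooled list is therefore not in itself a called peak. The thresholded list is the authors' selection by IDR, and its entries are called thresholded here.

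Among the 1863 members 111 were thresholded, which is 5.96% (Wilson 95% interval 4.97 to 7.14), against 7.82% of all 30000 pooled entries. The thresholded members were the 111 strongest of the cluster by signal, the enrichment that the authors' peak calling attached to an entry. In the whole list the lowest thresholded signal was 41.538, while the highest signal outside was 41.532, and no pooled entry outside lay above the lowest one inside. To be thresholded and to be strong were hence the same property in these files. Thresholded members had signals between 41.7 and 1153 with a median of 83.0, and the other 1752 members had signals between 3.9995 and 41.4 with a median of 10.6. The strongest member ranked 27 in the pooled list, and 4 members were among the 100 strongest entries of the genome. Members made up 6.21% of all pooled entries and 4.73% of thresholded ones. The signal's scale relative to the control is not given in the sources used here, and no read counts were used, so the depth behind each value is unknown. Each list has its own signal scale, so the values of the pooled list and of the replicate lists are given side by side and their sizes are not compared.

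**Figure D1:**
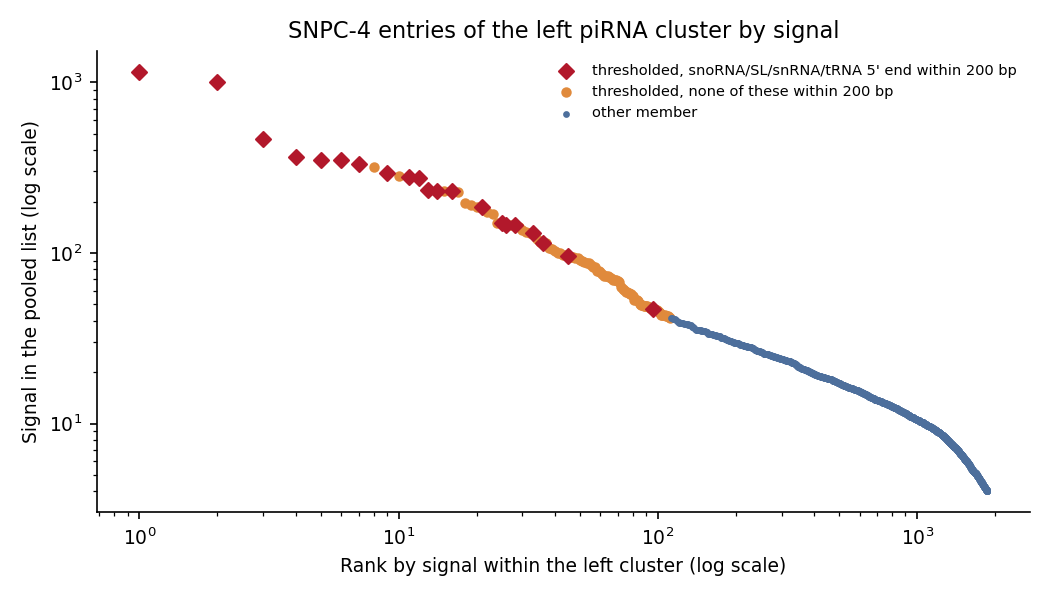
Signal of each of the 1863 members in the pooled list (vertical axis, log scale, the peak caller's value) against its rank within the left cluster (horizontal axis, log scale). Red diamonds are the 21 thresholded members near a snoRNA, spliced leader (SL), snRNA or tRNA 5′ end, orange circles the other thresholded members and blue points the members outside the thresholded list. The diamonds crowd at the top ranks, with 10 of the 12 strongest members among them.

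The very strongest members sat mostly on short noncoding RNA genes other than piRNA genes, and the share fell further down the ranking. Of the 12 strongest members 10 had their summit within 200 bp of the 5′ end of a small nucleolar RNA (snoRNA), spliced leader, snRNA or tRNA gene, and so had 15 of the 25 strongest, 20 of the 50 strongest and 21 of all 111 thresholded members. Of the 12 strongest, 2 lay that close to a piRNA 5′ end, and both of these were also near one of the other RNA genes. In the cluster 26 genes belonged to these 4 structured RNA classes, 21 of them had a member within 200 bp and 19 had a thresholded one. By contrast 1216 of the 2807 piRNA genes had a member (43.3%) and 16 had a thresholded one (0.570%). Sequences follow for the 13 snoRNA, spliced leader and snRNA genes with a thresholded member, and for the 2 strongest of the 6 such tRNA genes. They are printed from the RefSeq genome WBcel235, which is ce11, in the direction of transcription, with the 80 bases before the annotated 5′ end in lower case and the first 20 bases of the gene in capitals.
T08B6.64, chrIV:4880831-4880930, minus strand: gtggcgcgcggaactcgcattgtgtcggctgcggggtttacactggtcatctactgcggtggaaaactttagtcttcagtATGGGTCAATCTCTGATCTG
M03D4.78, chrIV:6117857-6117956, minus strand: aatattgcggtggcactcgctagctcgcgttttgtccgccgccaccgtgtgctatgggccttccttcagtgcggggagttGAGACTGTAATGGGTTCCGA
C17H12.36, chrIV:6792894-6792993, plus strand: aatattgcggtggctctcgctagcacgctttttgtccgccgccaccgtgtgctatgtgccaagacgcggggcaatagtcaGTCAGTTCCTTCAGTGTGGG
Y73B6A.14, chrIV:6664536-6664635, minus strand: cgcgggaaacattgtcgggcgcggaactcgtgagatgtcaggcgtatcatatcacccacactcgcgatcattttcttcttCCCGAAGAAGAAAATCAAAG
C06E7.95, chrIV:5833040-5833139, minus strand: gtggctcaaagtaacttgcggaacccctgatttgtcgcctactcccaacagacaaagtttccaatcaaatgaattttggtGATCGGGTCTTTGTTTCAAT
sls-2.17, chrIV:5317349-5317448, minus strand: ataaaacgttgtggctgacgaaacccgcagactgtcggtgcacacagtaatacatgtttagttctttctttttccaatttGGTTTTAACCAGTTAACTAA
sls-2.13, chrIV:5063512-5063611, minus strand: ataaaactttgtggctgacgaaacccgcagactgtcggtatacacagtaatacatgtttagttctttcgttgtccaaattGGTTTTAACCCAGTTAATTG
sls-2.19, chrIV:5264827-5264926, plus strand: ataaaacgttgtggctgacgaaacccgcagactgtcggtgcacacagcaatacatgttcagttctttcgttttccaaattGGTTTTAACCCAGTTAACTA
sls-2.12, chrIV:5261833-5261932, plus strand: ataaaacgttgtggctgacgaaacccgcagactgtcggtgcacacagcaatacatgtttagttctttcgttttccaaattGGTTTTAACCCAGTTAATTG
Y9C9A.111, chrIV:4930874-4930973, plus strand: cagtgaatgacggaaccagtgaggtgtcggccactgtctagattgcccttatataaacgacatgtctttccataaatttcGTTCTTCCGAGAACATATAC
Y17G9A.85, chrIV:4864716-4864815, minus strand: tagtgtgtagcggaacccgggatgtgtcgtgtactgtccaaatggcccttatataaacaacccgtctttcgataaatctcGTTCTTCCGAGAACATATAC
T08B6.62, chrIV:4885630-4885729, minus strand: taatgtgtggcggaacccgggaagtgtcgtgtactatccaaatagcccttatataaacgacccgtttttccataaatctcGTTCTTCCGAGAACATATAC
smy-7, chrIV:6460745-6460844, minus strand: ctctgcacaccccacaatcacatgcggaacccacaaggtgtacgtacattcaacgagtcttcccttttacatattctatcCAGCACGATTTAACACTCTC
B0350.t1, chrIV:5967080-5967179, plus strand: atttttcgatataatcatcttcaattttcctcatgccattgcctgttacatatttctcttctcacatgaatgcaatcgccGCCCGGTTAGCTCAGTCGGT
Y73B6BL.t1, chrIV:6481081-6481180, plus strand: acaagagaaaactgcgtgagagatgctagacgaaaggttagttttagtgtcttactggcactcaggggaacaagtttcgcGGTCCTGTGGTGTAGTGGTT

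Of the 13 snoRNA, spliced leader and snRNA genes with a thresholded member, 7 held CGGAAC in the 80 bases before the 5′ end on either strand, 4 held CGAAAC and 10 held TGTCG. Either CGGAAC or CGAAAC stood before 11 of the 13, and the exceptions were *M03D4.78* and *C17H12.36*. The 13 genes are not separate cases. All 4 genes with CGAAAC were *sls-2* genes, whose 80 upstream bases were identical at 74 to 79 positions in each pair. The genes with CGGAAC included *Y9C9A.111*, *Y17G9A.85* and *T08B6.62*, whose upstream bases matched at 61 to 72 positions. Among the 4 genes of these classes without a thresholded member, 2 held one of them. These words were chosen after the sequences had been read. In the same window of all 3512 genes of the cluster, CGGAAC occurred in 1.28%, CGAAAC in 5.75% and TGTCG in 4.50%. Among the 6 tRNA genes with a thresholded member, CGGAAC and TGTCG were found in 0 and CGAAAC in 1. Among the 2807 piRNA genes the shares were 0.998% for CGGAAC, 6.31% for CGAAAC and 3.67% for TGTCG. The reverse complement of CGAAAC shares the letters GTTTC with the piRNA motif, so counts of both are not independent at piRNA genes. A matching word is a description and no mapped binding site.

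The 2 strongest members marked snoRNA genes, which give rise to guides for the chemical modification of ribosomal and other RNA. *T08B6.64* (chrIV:4880738-4880850, minus strand) had signal 1153 in the pooled list, 642 in replicate 1 and 515 in replicate 2, with the summit 44 bp upstream of its 5′ end. *M03D4.78* (chrIV:6117751-6117876, minus strand) had 1006, with 478 in replicate 1 and 541 in replicate 2, and the summit lay 59 bp upstream. That summit also stood 280 bp upstream of *zen-4*, which encodes a kinesin of cytokinesis. The weaker of these 2 members was 2.17 times as strong as the next one in the pooled list. *C17H12.36* had 295 in the pooled list, 139 in replicate 1 and 167 in replicate 2, with the summit 57 bp upstream, and its 80 upstream bases matched those of *M03D4.78* at 60 positions. *Y73B6A.14*, in an intron of *Y73B6A.1*, had 352, with 187 and 158 in replicates 1 and 2, and *C06E7.95* had 232, with 140.1 and 107. The remaining 3 of the cluster's 8 snoRNA genes, *T19E7.29*, *C01B10.48* and *Y73B6A.15*, had no member within 200 bp.

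All 4 spliced leader genes of the cluster had a thresholded member. They are *sls-2* genes, whose RNA donates the SL2 leader that is trans-spliced onto downstream genes of operons. *sls-2.17* (chrIV:5317260-5317368, minus strand) had signal 463 in the pooled list, with 251 in replicate 1 and 204.0 in replicate 2. *sls-2.13* (chrIV:5063422-5063531, minus strand) had 363, with 222 in replicate 1 and 151 in replicate 2. At both genes the summit stood 19 bp upstream. *sls-2.19* had 275, with 145 and 146 in replicates 1 and 2, and *sls-2.12* had 145, with 80.5 in replicate 1 and no entry within 100 bp in replicate 2. The 80 upstream bases of the 4 genes were identical at 74 to 79 positions in each pair. Of all runs of 32 bases found up to 200 bp from the 5′ end, 46.2% at *sls-2.12*, 57.3% at *sls-2.19* and 78.9% at *sls-2.17* occurred once in the genome, so reads there may belong to another copy and those 3 values are uncertain.

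Of the 5 snRNA genes, 4 had a thresholded member. *Y9C9A.111*, in an intron of *Y9C9A.8*, had signal 332, with 225 in replicate 1 and 110.4 in replicate 2, and the summit lay 59 bp upstream. *Y17G9A.85* had 130.5, with 64.4 and 70.8 in replicates 1 and 2, and *T08B6.62* had 114.8, with 59.6 and 49.4. These 3 genes had the same first 20 bases, and their 80 upstream bases matched at 61 to 72 positions. Between 74.6% and 76.2% of such runs around them were unique, so that their values are uncertain too. *smy-7*, a gene for an SmY RNA, a small RNA of the trans-splicing machinery, had 95.8, with 54.5 and 42.7 in replicates 1 and 2, its summit lay 64 bp upstream and 92.7% of its runs were unique. *Y17G9A.90* had a member below the threshold, with signal 22.0 in the pooled list and 16.8 in replicate 1. Replicate 2 had no entry within 100 bp of it.

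Transfer RNA genes are transcribed by RNA polymerase III from promoter elements inside the gene. Of the 9 in the cluster 6 had a thresholded member. The tRNA-Lys gene *B0350.t1* (chrIV:5967160-5967232, plus strand) had signal 352, with 248 in replicate 1 and 96.3 in replicate 2, and the summit lay inside the gene, 58 bp past its 5′ end. The piRNA gene *21ur-5229* had its 5′ end 129 bp from that summit. The tRNA-Val gene *Y73B6BL.t1*, in an intron of *tyr-6*, had 277, with 157 and 126 in replicates 1 and 2. *Y4C6B.t1* (tRNA-Gln) had 234.6, *C09B9.t1* (tRNA-Lys) 229, *C43G2.t1* (tRNA-Leu) 186 and *Y4C6B.t2* (tRNA-Trp) 150.2 in the pooled list. *C43G2.t2* had a member below the threshold with signal 24.0, and *Y17G9A.t1* and *Y73B6BL.t2* had none. Of the 9 miRNA genes 5 had a member and 0 had a thresholded one, and the strongest of these, at *mir-790*, had signal 12.5.

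As a class, the 21 thresholded members near these 4 kinds of RNA gene had a median signal of 234.6 and a range from 46.9 to 1153. The 22 near a protein-coding 5′ end had a median of 86.1, and the 51 near no annotated 5′ end of any class a median of 71.1. The 14 near a piRNA 5′ end had a median of 65.3. The classes overlap, since the members at *B0350.t1*, *sls-2.19* and *C06E7.95*, for instance, were near a piRNA 5′ end as well. Summits of thresholded members had a median GC content of 38.3% within 100 bp, against 32.8% for the other members and 33.5% over the cluster. Fewer than 80% of the surrounding runs of 32 bases were unique at 14.4% of thresholded members and at 2.51% of the others, and at 33.3% of the thresholded members near structured RNA genes. The part of sequence copies and base composition in the signals was not tested.

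Protein-coding promoters formed a second set. Of 420 protein-coding genes 25 had a thresholded member within 200 bp of the 5′ end (5.95%), and 152 had any member. *rme-2*, which encodes the yolk receptor of oocytes, had signal 229.8 in the pooled list, 119.6 in replicate 1 and 100.8 in replicate 2, with the summit 95 bp upstream. *nbet-1*, named for a SNARE protein of membrane traffic, had 229, with 122 and 101.03 in replicates 1 and 2, and the summit was 83 bp into the gene and 103 bp upstream of the divergent gene *Y59E9AL.36*. *tebp-2*, which encodes a telomere-binding protein, had 131, with 75.1 in replicate 1 and 89.5 in replicate 2. *H35B03.2* had 114.8, with 84.2 and 36.9, and *ruvb-2*, for a RuvB-like ATPase, had 99.7, with 69.4 and 27.7. These were weaker in the pooled list than the members at the 2 leading snoRNA genes and stronger than the median thresholded member. Further thresholded members lay at *htp-2* (signal 87.3), for a protein of the meiotic chromosome axis, at *drh-1* (77.0), for a helicase of antiviral RNA interference, at *exos-2* (68.2), for a subunit of the RNA exosome, and at *hil-2* (67.9), for a linker histone.

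Near no annotated 5′ end of any class lay 51 thresholded members, or 45.9% of them, the same share as the 805 of 1752 other members. The strongest, with signal 318 in the pooled list, 189.5 in replicate 1 and 135 in replicate 2, was 262 bp from the 5′ end of *21ur-11026*. Another lay 259 bp upstream of the protein-coding gene *W03F8.4*, with 282 in the pooled list, 167 in replicate 1 and 131 in replicate 2. Distances from the summit to the nearest 5′ end ran from 204 to 3200 bp with a median of 592 bp, and 28 exceeded 500 bp. Of the 51, 26 were outside protein-coding genes, 17 were in introns and 8 in exons. The exact motif was within 100 bp of 0 of them, while 42 had an entry of each replicate within 100 bp and 14 had a pooled signal over 100. IDR compares these same replicates, so this recurrence is no independent support for them, as for all thresholded members.

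Thresholded members at piRNA genes were few, and their median signal of 65.3 lay below the 83.0 of all thresholded members. Of the 111 thresholded members 14 lay within 200 bp of a piRNA 5′ end (12.6%, 7.66 to 20.06), and 9 of these were near neither a structured RNA nor a protein-coding 5′ end. The regions of the 5 strongest of those 9, and of the 3 strongest members outside the thresholded list, all of which happened to lie at piRNA genes, are printed from the same genome, with 70 bases before the piRNA and its 21 bases. Capitals mark the best match to CTGTTTCA between 30 and 70 bp upstream, allowing 1 mismatch.
21ur-13565, chrIV:6140592-6140682, minus strand: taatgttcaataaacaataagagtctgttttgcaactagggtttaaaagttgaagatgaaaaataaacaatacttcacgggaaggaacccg
21ur-10115, chrIV:5011020-5011110, plus strand: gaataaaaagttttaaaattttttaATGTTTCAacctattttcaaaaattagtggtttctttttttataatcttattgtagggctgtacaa
21ur-4646, chrIV:6164849-6164939, plus strand: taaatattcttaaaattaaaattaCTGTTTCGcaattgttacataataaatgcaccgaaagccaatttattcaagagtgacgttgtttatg
21ur-6515, chrIV:6093981-6094071, plus strand: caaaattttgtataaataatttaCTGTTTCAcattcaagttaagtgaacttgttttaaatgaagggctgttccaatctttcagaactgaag
21ur-6371, chrIV:5101783-5101873, plus strand: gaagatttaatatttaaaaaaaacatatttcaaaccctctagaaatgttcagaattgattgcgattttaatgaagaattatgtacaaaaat
21ur-13778, chrIV:6129912-6130002, minus strand: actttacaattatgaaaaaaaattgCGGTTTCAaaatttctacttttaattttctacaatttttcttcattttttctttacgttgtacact
21ur-7003, chrIV:5959105-5959195, plus strand: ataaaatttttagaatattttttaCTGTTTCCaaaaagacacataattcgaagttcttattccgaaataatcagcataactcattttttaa
21ur-1804, chrIV:6048084-6048174, plus strand: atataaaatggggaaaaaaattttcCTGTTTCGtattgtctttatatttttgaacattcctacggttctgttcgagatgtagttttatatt

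The motif was exact upstream of *21ur-6515*, had 1 mismatch at 5 of the other genes, and was not found upstream of *21ur-13565* and *21ur-6371*. The member at *21ur-13565* had signal 137 in the pooled list, 76.8 in replicate 1 and 73.5 in replicate 2, but 61.1% of the 32-base runs around it were unique. The member at *21ur-10115* had 121, with 83.9 in replicate 1 and no entry within 100 bp in replicate 2. It also lay 66 bp into the noncoding RNA gene *T28H11.31*, and 60.8% of the runs around it were unique. Another thresholded member beside it, more than 200 bp from the piRNA 5′ end, had 38.7 in replicate 2. At *21ur-4646* the signals were 61.6 in the pooled list, 25.2 in replicate 1 and 14.9 in replicate 2, with the summit 23 bp upstream. The members at *21ur-6515* and *21ur-6371* had 52.7 and 49.2 in the pooled list, replicate 2 had no entry at either, and 65.1% of the runs around the first of them were unique. Over all 14 thresholded members near a piRNA 5′ end, 35.7% had fewer than 80% unique runs, so several of these few values are uncertain. Just inside the threshold stood members in *mtrf-1L* (42.7), at *21ur-3329* (42.0) and in an exon of *cec-6* (41.7). Just outside it stood those at *21ur-13778* (41.4), *21ur-7003* (41.3) and *21ur-1804* (41.1).

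The members outside the thresholded list had the opposite placement. Of these 1752 members 798 lay within 200 bp of a piRNA 5′ end (45.5%, 43.2 to 47.9), and 32.9% of all positions in the cluster lie that close to one. Thresholded members, at 12.6%, were below that share of positions, and the Wilson intervals of thresholded and other members did not overlap. Structured RNA 5′ ends showed the reverse, at 18.9% of thresholded members, 0.228% of the others and 0.474% of positions. Protein-coding 5′ ends were near 19.8% of thresholded members, 7.82% of the others and 7.51% of positions. Summits outside protein-coding genes made up 60.4% of thresholded members, against 38.9% of the others and 42.7% of positions. Introns held 29.7% against 36.8%, with 30.6% of positions and overlapping intervals, and exons 9.91% against 24.3%, with 26.7% of positions. Intervals cover counting error only, and neighbouring entries share chromatin and libraries, so no p-value was computed.

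**Figure D2:**
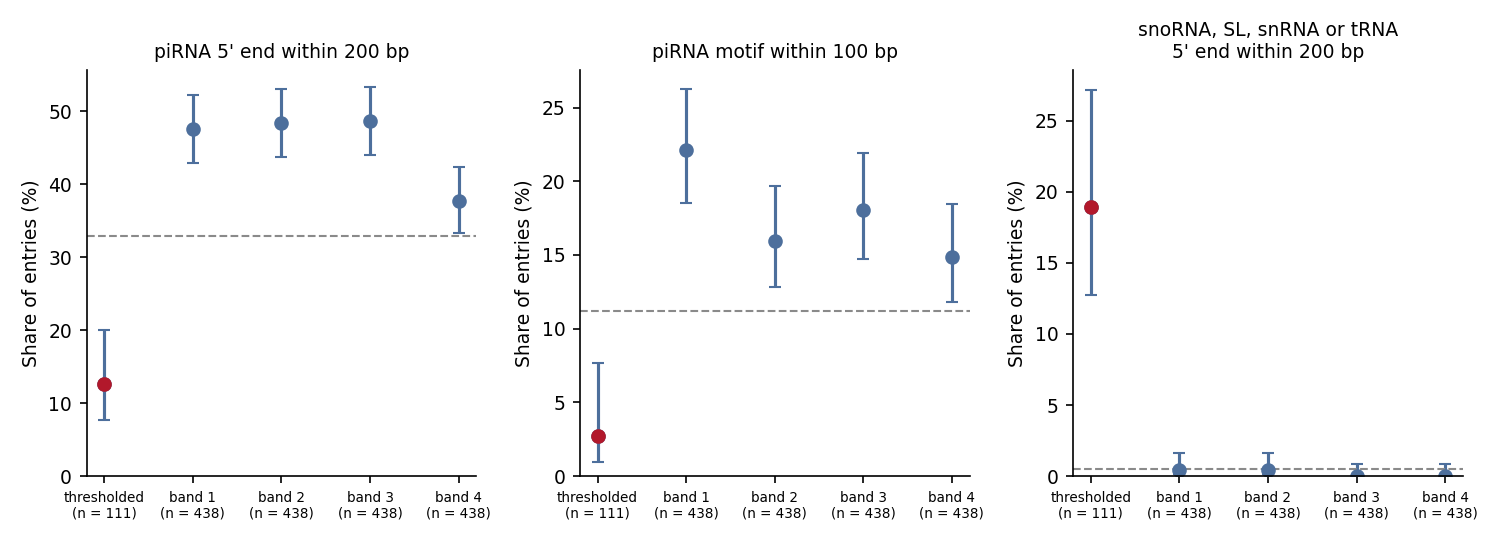
Share of members (vertical axes, percent) with a piRNA 5′ end within 200 bp, with the motif CTGTTTCA within 100 bp and with a structured RNA 5′ end within 200 bp, for thresholded members (red) and for the other members in 4 bands of equal size, from strongest to weakest (blue). Bars are Wilson 95% intervals and dashed lines the share of all cluster positions; the red point lies below the line in the first and second panels and above it in the last.

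Within the other members the piRNA share at 200 bp did not follow signal over most of its range. They were divided by signal into 4 bands of 438 members. From the strongest band to the weakest, 47.5%, 48.4%, 48.6% and 37.7% lay near a piRNA 5′ end. The weakest band, with an interval from 33.3 to 42.3, came closest to the 32.9% of positions. The motif CTGTTTCA, sought on both strands within 100 bp of the summit, was at 22.1%, 15.98%, 18.0% and 14.8% of the bands in that order, against 2.70% of thresholded members and 11.2% of positions. The plain comparison of the 465 strongest of all 1863 members with the 465 weakest gave 38.7% against 37.4% for piRNA 5′ ends and 17.8% against 14.4% for the motif. Their differences, 1.29 and 3.44 percentage points, lay within the counting intervals. The 465 strongest mix 111 thresholded members with 354 others. The core GTTTCA was at 18.9% of thresholded and 41.7% of other members, with 35.9% of positions. TATAAA was at 18.9% and 25.5%, with 25.1% of positions, and CGGAACCC, known from earlier results of these data, was at 7.21% and 0.285%, with 0.223%. Median GC differed between these sets, as given above, and its part in the word counts was not tested.

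Seen from the piRNA genes, entries outside the thresholded list were above their cluster mean in every 50 bp bin up to 500 bp away, with the highest bin just upstream of the 5′ end. In 50 bp bins from 150 bp upstream to the 5′ end, their density was 1.69, 1.60 and 1.76 times the cluster mean. It was 1.38 times in the first 50 bp downstream of the 5′ end, which reach past the 21 bases of the piRNA. The profile was uneven, since the bin from 200 to 150 bp upstream had 1.12, the bin from 250 to 200 bp upstream had 1.72, and bins at 400 to 350 bp upstream and at 200 to 250 bp downstream had 1.41 and 1.42. The densities 450 to 500 bp away were 1.33 upstream and 1.15 downstream. Thresholded members reached 0.282 times their cluster mean in each of the 3 upstream bins, which hold 2 summits apiece. In the replicate lists the same 3 bins and the first bin downstream of the 5′ end gave 1.62, 1.71, 1.54 and 1.77 in replicate 1. The values in replicate 2 were 1.45, 1.27, 1.21 and 1.16. Replicate 1 thus showed the higher density at piRNA 5′ ends in each of the 4 bins. Outside these 4 bins the highest value in replicate 1 was 1.39, at 200 to 250 bp downstream. In replicate 2 it was 1.40, at 350 to 400 bp downstream, so its bins directly beside the 5′ end did not stand out from distant ones.

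**Figure D3:**
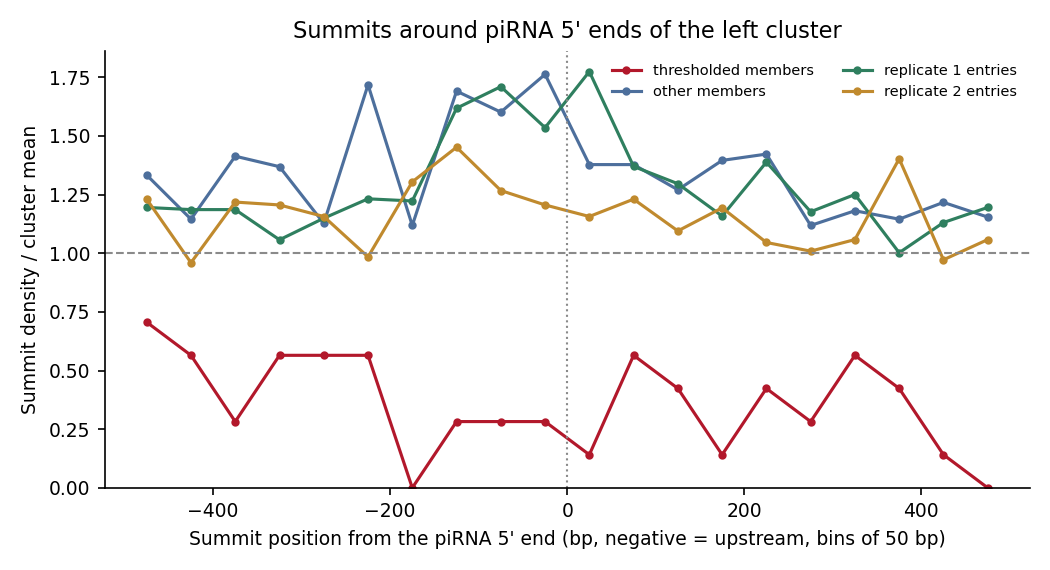
Density of entries around the 5′ ends of the 2807 piRNA genes in 50 bp bins (horizontal axis, bp, negative upstream), as a ratio to the mean density of the same kind of entry in the cluster (vertical axis). Lines stand for thresholded members, other members and the left-cluster entries of each replicate list; other members reach 1.76 in the 50 bp upstream of the 5′ end and thresholded members stay below 1 in every bin.

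The piRNA genes with and without the motif differed modestly. The motif with up to 1 mismatch stood upstream of 2256 piRNA genes and was not found for 551. Another member, outside the thresholded list, lay within 200 bp of 45.1% of genes with the motif (43.1 to 47.2) and of 33.8% of genes without it (29.9 to 37.8). In replicate 1 an entry lay near 43.1% of genes with it and 37.9% of genes without it, and in replicate 2 near 27.8% and 23.2%, and in each replicate the intervals overlapped. Thresholded members were near 0.488% of genes with the motif and 0.907% of genes without it, which are 11 and 5 genes. Genes of both kinds had another piRNA gene within 200 bp about as often, at 59.5% with the motif and 62.3% without it, and their median GC was 28.4% and 27.9%. With the exact motif the shares with another member were closer, at 45.8% of 1114 genes with it and 40.99% of 1693 without it, with overlapping intervals.

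Along the cluster the other members followed the number of piRNA genes and the thresholded members did not. Over the 22 windows of 100 kb, counts of other members correlated with counts of piRNA genes at Pearson's r = 0.865 and Spearman's rho = 0.864. For thresholded members the values were −0.126 and −0.211. All windows share the same libraries, and these values describe the cluster with no test. The 11 windows richest in piRNA genes, with 141 to 220 each, held 1108 other members and 49 thresholded ones. The other 11 windows, with 17 to 131 piRNA genes, held 644 other members and 62 thresholded ones. Thresholded members per window ranged from 2 to 10 in the richer windows, with a median of 5, and from 2 to 12 in the poorer ones, with a median of 6. The highest count of thresholded members, 12, fell in the window from 5300001 to 5400000, which held 118 piRNA genes and 3 structured RNA genes, and the most piRNA genes, 220, fell in the window from 5800001 to 5900000, which held 3 thresholded members.

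**Figure D4:**
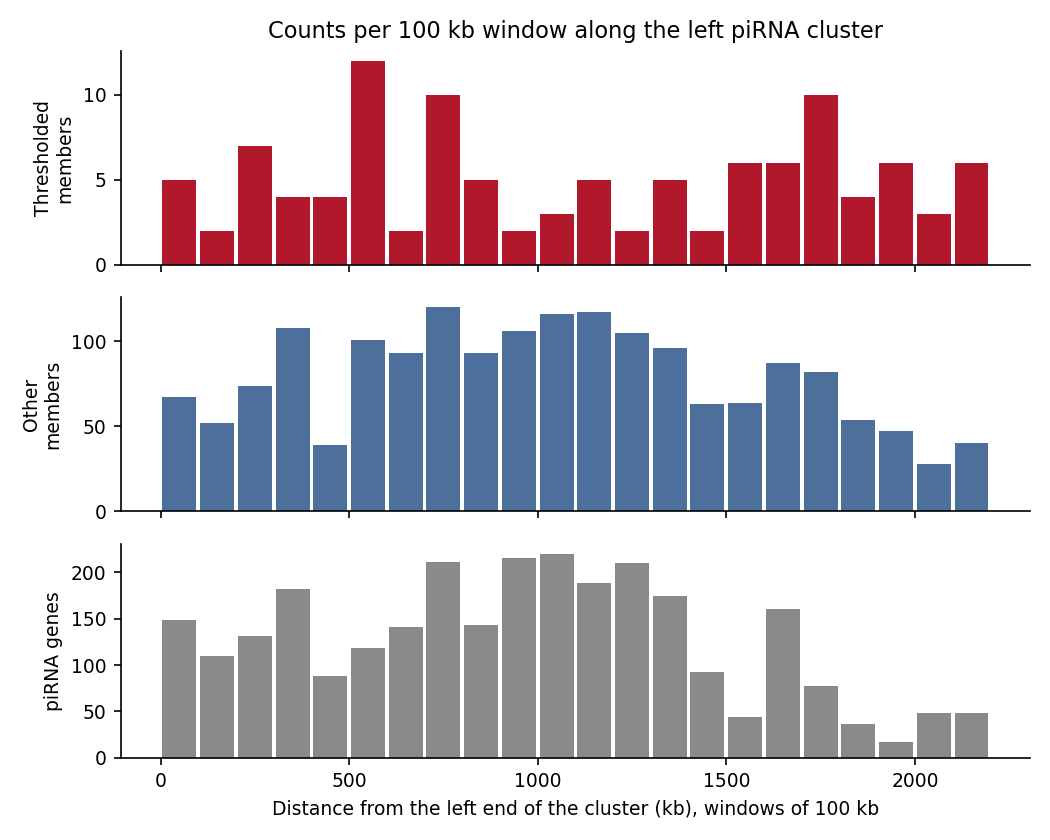
Counts per 100 kb window along the left cluster (horizontal axis, distance from its left edge in kb) of thresholded members, of other members and of piRNA genes. Other members rise and fall with piRNA genes, at r = 0.865 over 22 windows, while thresholded members stay between 2 and 12 per window.

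IDR compares these same replicates, and the thresholded members were also the strongest of the cluster by pooled signal. Not every one of them had an entry of both replicates within 100 bp. Their overlap with both lists is no independent support and is given as a description. Of the 111 thresholded members 93 had an entry of both replicates within 100 bp of the summit (83.8%), and 0 had an entry of neither, which by the limit of 3 counts allows a share of up to 2.70%, and 3.35% by the Wilson interval. Of the other members 14.04% had both and 26.3% had neither. In the bands of other members, strongest first, both replicates were found for 34.2%, 11.9%, 7.08% and 2.97%, and 3.09% of all cluster positions lie that close to an entry of both. For both replicates together the weakest band was thus close to the share of positions. For each replicate alone it was above that share. In this band 33.8% had an entry of replicate 1 and 24.4% one of replicate 2, against 15.6% and 11.6% of positions. Over all members the share was 18.2%. Among the 339 members in both replicates, the signals correlated at Spearman's rho = 0.547. The values were 0.697 among the 93 thresholded ones and 0.0230 among the 246 others. These sets are divided by pooled signal, which was at most 41.4 in the others. A member high in both replicates is therefore unlikely to be among the others, and the 2 correlations cannot be read apart from the division. The pooled list by its name combines both replicates, so presence in a replicate list is no independent support for a member.

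**Figure D5:**
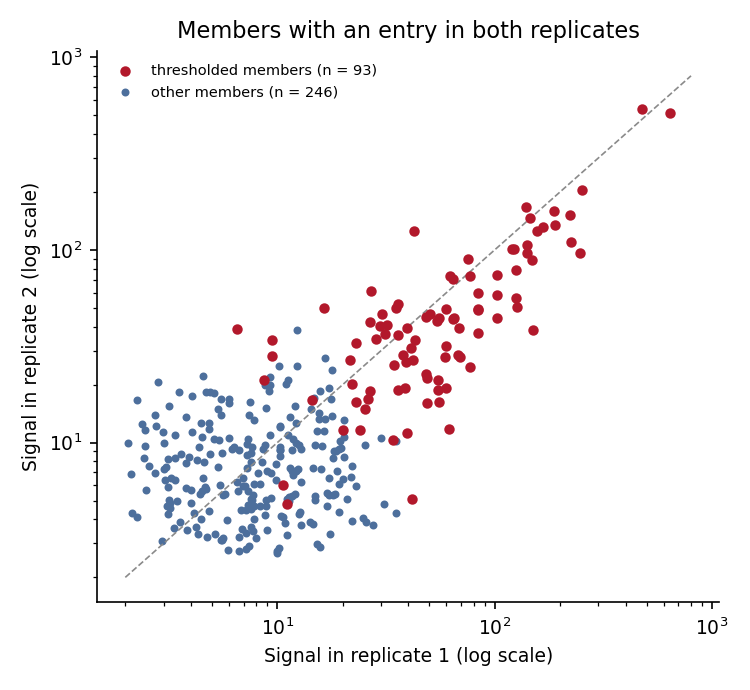
Signal of members in the replicate 1 list (horizontal axis, log scale) against the replicate 2 list (vertical axis, log scale) for the 339 members with an entry of both within 100 bp. The 93 thresholded members rise together in both lists, with rho of 0.697, and the 246 others form a cloud at low signal with rho of 0.0230. The sets are divided by pooled signal, so the 2 rho values depend on that division.

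Each replicate list alone gave the same contrast between its 111 strongest cluster entries and the others. The pooled list combines these replicates, so this is no separate support. Replicate 1 had 1705 entries in the cluster, of which 44.0% lay near a piRNA 5′ end, and replicate 2 had 1274, of which 39.6% did. In the 111 strongest cluster entries of replicate 1, 18.0% were near a piRNA 5′ end, against 45.8% of its other cluster entries. In replicate 2 the values were 14.4% and 42.0%. A wider division differed. The 426 strongest and 426 weakest entries of replicate 1 had 40.1% and 41.3% near a piRNA 5′ end. For the 318 strongest and 318 weakest of replicate 2 the shares were 28.9% and 43.4%. Structured RNA 5′ ends were near 18.0% of the 111 strongest in replicate 1 and 18.9% in replicate 2, and near 0.251% and 0.258% of their other cluster entries. The motif was at 5.41% of the 111 strongest in each replicate, against 18.6% of the remainder in replicate 1 and 15.99% in replicate 2. The cluster took 6.18% of the entries of replicate 1 and 4.25% of those of replicate 2.

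The left cluster was set beside the right piRNA cluster (chrIV:13500001-17300000), which holds 11534 piRNA genes. Entries were denser than on other chromosomes in both, with 846.8 per Mb in the left cluster, 1307 per Mb in the right one, 296 per Mb over the rest of chromosome IV and 238 per Mb on the other nuclear chromosomes. Thresholded entries made up 5.96% of left-cluster entries, 10.2% in the right cluster (9.41 to 11.1), 6.97% in the rest of IV and 7.41% on the other chromosomes. Thresholded entries numbered 50.5 per Mb in the left cluster, against 134 per Mb in the right one, 20.6 per Mb in the rest of IV and 17.7 per Mb on the other chromosomes. The left cluster was thus denser than the rest of IV both in all entries and in thresholded ones, and the right cluster was denser still. The thresholded members of the left cluster had the highest median signal, 83.0, against 54.7 in the right cluster, 60.4 in the rest of IV and 62.1 on the other chromosomes. Entry densities in the replicate lists were 775 and 579 per Mb in the left cluster for replicates 1 and 2, against 219 and 259 per Mb on the other chromosomes.

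The clusters differed most at the piRNA genes themselves. Of the members near a piRNA 5′ end in the left cluster, 14 of 812 were thresholded (1.72%), with a median signal of 11.2, against 310 of 3501 in the right cluster (8.85%), with a median of 17.2. Thresholded entries near a piRNA 5′ end made up 12.6% in the left cluster, where 32.9% of positions are near one, against 61.0% in the right cluster, where 55.8% are. The motif was at 2.70% of thresholded members in the left cluster and 20.9% in the right one, against 11.2% and 17.6% of positions. Structured RNA 5′ ends were near 18.9% of thresholded members in the left cluster, 7.87% in the right cluster and 20.7% in the rest of chromosome IV, and protein-coding ones near 19.8%, 7.68% and 25.7% in the same order. The intervals of the left and right clusters did not overlap for the piRNA, motif, structured RNA and protein-coding shares. These are shares of all thresholded entries, and 310 of the 508 in the right cluster were near a piRNA 5′ end. Near structured RNA 5′ ends lay 21 thresholded members over the 2.2 Mb of the left cluster, against 40 over the 3.8 Mb of the right one. Near protein-coding 5′ ends the counts were 22 and 39. The lower right-cluster shares of these 2 classes are therefore not read as fewer entries there per length. Near piRNA 5′ ends, fewer than 80% of the surrounding 32-base runs were unique at 1.35% of entries in the left cluster and 3.599% in the right cluster. The part of sequence copies in the difference was not tested, and depth is unknown.

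The genes that make or use piRNAs were looked up from a list of 22, chosen with earlier results known, of which 21 were found in the annotation. Only 2 of them lie in the left cluster. *prg-2*, a paralogue of the piRNA Argonaute gene *prg-1*, had no member within 200 bp of its 5′ end, and *snpc-3.1*, for another SNAPc subunit, had a member with signal 11.5, close to the median of all members. Over the genome 7 of the 21 had a pooled entry and 2 a thresholded one, at *snpc-4* itself (signal 124) and at *snpc-3.4* (69.2). The transgene of these worms also encodes SNPC-4, and whether it contributed reads at *snpc-4* was not tested. Among all protein-coding genes of the left cluster the shares were 36.2% for a pooled entry and 5.95% for a thresholded one. Most of the 21 lie on other chromosomes, where entries are sparser, and the share over all protein-coding genes of the genome was not computed. The counts of the list are therefore not read as a result about it.

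The borders of the cluster came from windows of piRNA genes and not from the entries. The 2 members nearest the left border had summits at 4800146 and 4802509 with signals of 16.1 and 13.3, and the entries just outside it had 17.8 at 4799935 and 24.4 at 4799302. At the right border the last members had 15.7 at 6993633 and 7.23 at 6991081, and the entries just outside had 11.1 at 7011982 and 23.4 at 7012921. Neighbouring thresholded summits were a median of 10268.5 bp apart, and neighbouring summits of all members 786 bp. The usual width of 380 bp applied to 41.4% of thresholded members and 99.5% of the others, so the interval of a weak entry carries little information beyond its summit. The 1863 summits fell in 1860 intervals.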

How the data were processed

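SNPC-4 ChIP-seq entries came from narrowPeak lists deposited by the authors: the pooled list and both single-replicate lists that went into IDR, and the thresholded list, all on ce11. The signal of each entry, its −log10 q value and its summit position are the authors' deposited values, and the signal served to describe, rank and filter entries within a list and, by rank alone, to correlate the replicate lists. The −log10 q value reached the list maximum for 294 members and ranked none of them. For the aligner, the peak caller and the cut applied in IDR, names and settings are not stated by any source used here. The files hold no read counts, so the depth per sample is unknown, and all intervals cover counting error only.

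Gene positions came from Ensembl release 115 on WBcel235, and symbols from RefSeq by WormBase identifier, which matched 3512 of 3512 genes. Nearness to a gene meant a summit up to 200 bp from its 5′ end on either side, and an entry was in a replicate when that list had a summit within 100 bp. In place of a test, shares of entries stand beside the share of all cluster positions, counted exactly. Wilson 95% intervals were computed with scipy 1.17.1, with pandas 2.3.3 and Python 3.11.15, and the counting was tested on simulated data. Named genes were the 12 strongest members, the 5 strongest members near piRNA genes alone, up to 5 strongest per RNA class and at protein-coding genes, and those beside the threshold and the borders. *htp-2*, *drh-1*, *exos-2* and *hil-2* were added after their values had been seen. The members and lists were chosen with earlier results of these data known. No comparison of groups of samples was possible, since there was a single group.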

Additional observations from a re-analysis of the deposited data

How the results depend on the processing

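No paired analysis was possible because the replicates formed a single group and no test was made. The share of members in the thresholded list, 5.96%, stayed at 5.86% to 5.96% when matched within 100 bp, with whole intervals in the cluster or with intervals counted once. The share near a piRNA 5′ end, 43.6%, was 26.9% at 100 bp and 63.2% at 500 bp, where 19.2% and 53.6% of positions qualify, and 39.6% to 44.0% in the replicate lists alone. The 465 strongest minus the 465 weakest members, 1.29 points for piRNA 5′ ends, gave −9.68 at 500 bp, −32.9 for thresholded minus other members and −14.5 to −1.17 in the replicate lists. For the motif, 3.44 points became −15.0 for thresholded minus other members and −2.52 to 4.69 in the replicate lists. Hence the sign of both differences rests on how strong and weak are divided and on the list used, and that of the first also on the distance; the cause was not tested. With thresholded members left out, an alternative chosen after seeing the data, they were 9.82 and 7.31 points, and without members near structured RNA or protein-coding 5′ ends, chosen likewise, 3.82 and 4.77. The share in both replicates, 18.2%, was 10.8% within 50 bp and 29.95% within 200 bp. In the stronger part of the thresholded list 73 of the 111 members remained. The median signal of all 111, 83.0 in the pooled list stood against 39.3 to 48.7 in the replicate lists, whose values have their own scale. The lack of depth, of a control list and of a second group limits every statement to where entries lie.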
